A study of Mus musculus with 15 samples.

Results

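The genes described here are the nuclear genes of the mitochondrial oxidative phosphorylation (OXPHOS) system. They are the rows of the deposited count table whose gene name starts with Nduf, Uqcr, Atp5 or Cox4 to Cox8, or is Sdha, Sdhb, Sdhc or Sdhd. Rows whose description calls them a pseudogene or predicted gene were left out, which removed 14 rows. The rule gave 101 genes of 57010 rows. The libraries were made from lung tissue of C57BL/J mice collected 30 days after dosing. Control mice (4 libraries) received physiological saline, DMSO mice (4 libraries) a solution of dimethyl sulfoxide, silica mice (3 libraries) silica, and silica_DMSO mice (4 libraries) a silica suspension as nasal drops with DMSO solution on the second day. The labels used here do not give doses, sex or age. Each library is called here by its group and the number in its label. The labels do not say that each library came from its own mouse, so the p-values measure only the spread between these libraries. The tissue field of every sample says lung, while the extraction text of the labels speaks of retinas.

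The respiratory chain passes electrons from NADH through complex I, or from succinate through complex II, to complex III and then through cytochrome c to complex IV, which reduces oxygen. Complexes I, III and IV pump protons across the inner mitochondrial membrane, and complex V, the ATP synthase, uses that gradient to make ATP. Complexes I, III, IV and V combine nuclear subunits with subunits encoded in mitochondrial DNA, whereas all subunits of complex II, succinate dehydrogenase, are nuclear.

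By name, 50 of the genes belonged to complex I (37 subunits, 8 Ndufaf assembly factors and 5 gene copies), 4 to complex II, 8 to complex III, 21 to complex IV and 18 to complex V. Ndufa4 and Ndufa4l2 were placed in complex IV, where the Ndufa4 protein is now known to sit. Cox7a2l, a factor that joins complexes III and IV, was counted there too. The deposited gene lengths ran from 231 to 4660 bases with a median of 723. Complex II had the longest genes, with a median of 2066 bases, and complexes III and IV the shortest, with medians of 541 and 571. A filter on low counts kept 93 of the 101 genes. The other 8 had at most 1.22 counts in any library: the gene copies Ndufa11b, Ndufab1-ps, Ndufb11b, Ndufs6b and Cox6c2, the testis isoforms Cox7b2 and Cox8c, and one of the 2 identifiers named Atp5o (ENSMUSG00000116933).

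The promoters of 77 of the genes had an entry in the RefSeq table (build GRCm38.p6). The 250 bases upstream of each start site were searched on both strands for 4 letter patterns. The NRF1 pattern (GCGCA, then any base, then GCGC), named for nuclear respiratory factor 1, was found in 14 of the 77 promoters (18.2%), against 4.23% of the promoters of 27025 genes. The ETS pattern CCGGAAG, read by GABP and other ETS factors, was also in 14 (18.2%), against 7.83% of all. The YY1 pattern AAGATGGC was in 1 (1.30% against 1.83%) and CCAAT in 34 (44.2% against 37.5%). A match is a description of letters and not a shown binding site. The 4 promoters printed here show a gene with 3 NRF1 matches (Sdha), a gene with an ETS match (Uqcrh), and a pair of muscle and brown fat isoforms with neither (Cox7a1 and Cox8b). The common subunits Sdhb and Atp5b, not printed, also had neither pattern, so lacking both does not set the isoforms apart. Each runs 5′ to 3′ on the strand of its gene and ends at the start site, and capitals mark any of the 4 patterns on either strand, including CCAAT read as ATTGG.
Sdha promoter, chr13:74350241-74350490, minus strand: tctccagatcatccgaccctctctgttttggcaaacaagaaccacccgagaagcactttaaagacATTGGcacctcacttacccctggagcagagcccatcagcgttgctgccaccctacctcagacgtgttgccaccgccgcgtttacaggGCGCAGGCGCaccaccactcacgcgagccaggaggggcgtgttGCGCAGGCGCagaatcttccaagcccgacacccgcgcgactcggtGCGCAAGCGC
Uqcrh promoter, chr4:116075071-116075320, minus strand: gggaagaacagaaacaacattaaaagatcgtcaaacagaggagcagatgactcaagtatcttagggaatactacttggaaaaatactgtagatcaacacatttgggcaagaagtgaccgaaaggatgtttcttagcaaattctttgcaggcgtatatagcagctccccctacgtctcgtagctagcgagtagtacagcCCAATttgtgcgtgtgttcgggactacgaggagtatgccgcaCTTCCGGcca
Cox7a1 promoter, chr7:30183921-30184170, plus strand: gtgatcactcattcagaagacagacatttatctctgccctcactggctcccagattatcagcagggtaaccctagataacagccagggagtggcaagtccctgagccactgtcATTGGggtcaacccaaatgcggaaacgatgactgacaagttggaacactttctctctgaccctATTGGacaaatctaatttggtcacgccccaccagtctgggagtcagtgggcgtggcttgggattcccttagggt
Cox8b promoter, chr7:140900447-140900696, minus strand: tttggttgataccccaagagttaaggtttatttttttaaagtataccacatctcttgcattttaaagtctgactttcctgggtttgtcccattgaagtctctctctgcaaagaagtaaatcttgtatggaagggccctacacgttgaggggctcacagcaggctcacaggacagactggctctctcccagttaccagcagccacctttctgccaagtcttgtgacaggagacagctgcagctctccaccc

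Library depth ran from 17434653 to 20829923 counts. The summed level of 6 thymocyte markers was 1625 to 1997 TPM (the authors' level, scaled for transcript length and library size) in DMSO 7, silica_DMSO 4 and silica_DMSO 6, and at most 3.28 in the other 12 libraries. The same 3 libraries held 279 to 13102 TPM of 6 alveolar type 2 markers, below the 16877 to 52543 of the other 12. They are called the 3 libraries with thymocyte RNA, and the median fold changes of the OXPHOS genes that rest on them are also given without them. In bulk tissue, fewer cells of a type and less RNA per cell cannot be told apart.

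The OXPHOS genes took a small and uneven share of the counts. Among controls the share was 1.24% in control 1, 0.623% in control 2, 0.596% in control 4 and 0.761% in control 7. Among DMSO libraries it was 1.13% in DMSO 1, 1.66% in DMSO 4, 0.733% in DMSO 6 and 0.874% in DMSO 7. Silica libraries had 0.551% in silica 1, 0.790% in silica 2 and 1.203% in silica 7. Each of these groups held both low and high libraries, and their ranges overlapped. The last group had the largest SD and held the highest share of counts, in silica_DMSO 5. By share of TPM the order differed, with 3.45% in silica_DMSO 6, 2.86% in silica_DMSO 4 and 2.64% in silica_DMSO 5. The silica_DMSO libraries had 0.665% in silica_DMSO 2, 1.23% in silica_DMSO 4, 2.02% in silica_DMSO 5 and 1.501% in silica_DMSO 6. Group means were 0.804% ± 0.298 (SD, n = 4) in control, 1.10% ± 0.409 (SD, n = 4) in DMSO, 0.848% ± 0.329 (SD, n = 3) in silica and 1.35% ± 0.563 (SD, n = 4) in silica_DMSO.

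Summed TPM put the complexes in the order V, I, IV, III and II in all 15 libraries, from 4121 to 12867 TPM for complex V down to 187 to 618 TPM for complex II. Complexes I, III, IV and V were high and low in much the same libraries, as the plot of summed TPM by complex shows. Complex V had 4924 TPM ± 912 (SD, n = 4) in control, 6718 ± 1524 (SD, n = 4) in DMSO, 5229 ± 973 (SD, n = 3) in silica and 9593 ± 3557 (SD, n = 4) in silica_DMSO. In TPM, complex II did not share the order of libraries: its lowest sums were 187 TPM in silica_DMSO 5, 207 in control 1 and 212 in DMSO 4, all libraries in which the other complexes were high. On counts scaled with edgeR's TMM factors this was reversed, since the median deviation of the 4 complex II genes from their medians over 15 libraries was highest in silica_DMSO 5 (1.44 log2) and DMSO 4 (1.39). It made up 0.708% of the OXPHOS TPM in silica_DMSO 5 and 2.56% in silica 1.

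**Figure D1:**
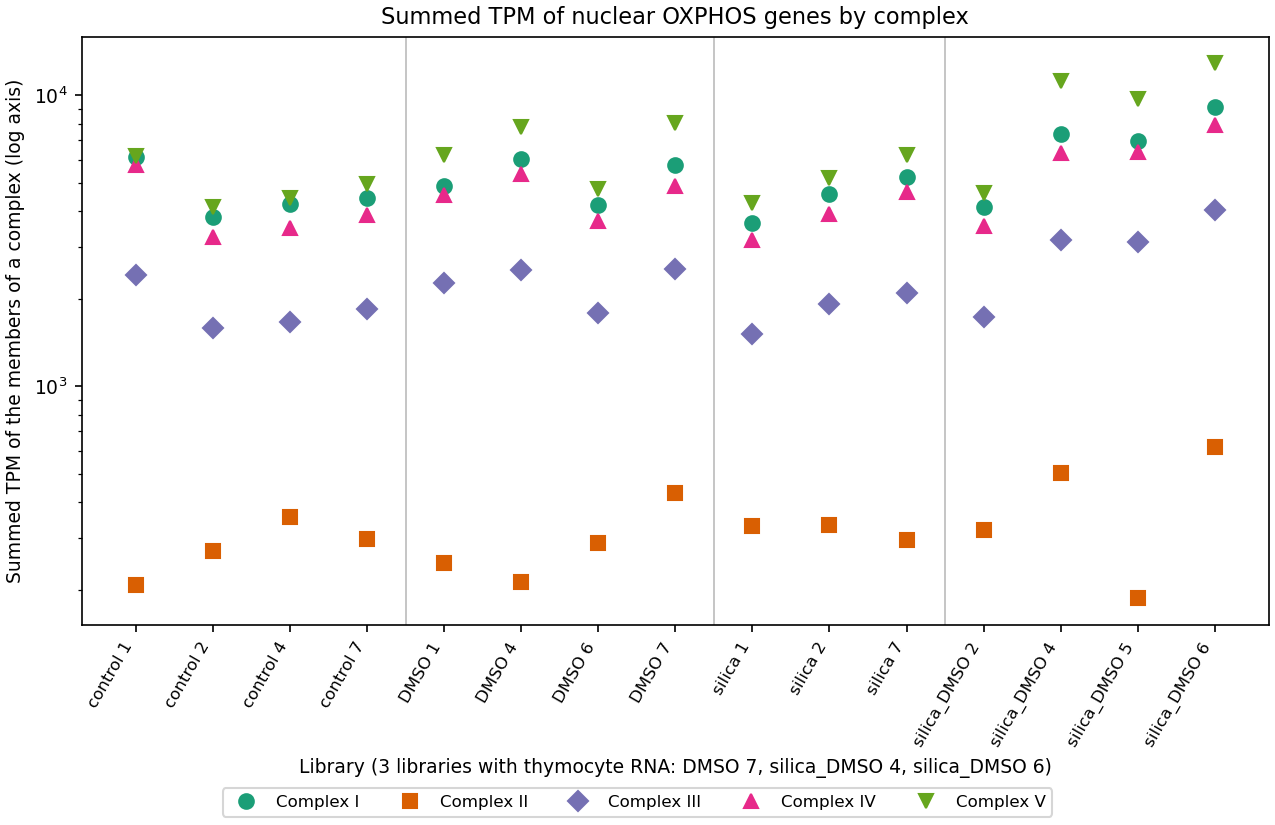
Summed TPM of the genes of each complex (log axis) in each of the 15 libraries, 1 marker shape per complex, with grey lines between the groups. Complexes I, III, IV and V are high in silica_DMSO 4, 5 and 6, while complex II is lowest in silica_DMSO 5 at 187 TPM, an order that is reversed on TMM-scaled counts.

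The spread between libraries went with gene length. For each of the 93 genes, the log2 CPM (counts scaled to a common library total with edgeR's TMM factors, with a prior count of 2) in a library was set against the median of the 15 libraries, and this deviation was fitted on log2 gene length. The TMM factors were 0.478 in silica_DMSO 5, 0.616 in DMSO 4 and 0.898 to 1.24 in the other 13 libraries, so levels in those 2 libraries stand higher on this scale than in TPM. The slope was -0.78 log2 per doubling of length in silica_DMSO 5, -0.53 in control 1, -0.52 in DMSO 4, -0.29 in silica 7 and -0.23 in DMSO 1. In the other 10 libraries it lay between -0.04 and 0.17. Each of the 4 groups held at least 1 library of the first kind. Over all 17879 tested genes the slope was -0.67 in silica_DMSO 5 and -0.76 in DMSO 4, so short genes in general were high there. In control 1 it was -0.18, near the -0.19 of silica_DMSO 6. All tested genes under 600 bases had a median deviation of 0.10 in control 1, and those of 600 to under 1000 bases 0.66. Scgb1a1, the secretoglobin of club cells, took 12.3% to 14.2% of the counts in control 1, DMSO 4, silica 7 and silica_DMSO 5, 8.83% in DMSO 1 and at most 5.31% in the other 10, and its part in these slopes was not tested. The slopes describe 93 genes of shared libraries and carry no test. Against the median implied length, which is introduced with the transcript lengths, the slope was -0.64 in silica_DMSO 5, -0.47 in control 1 and -0.40 in DMSO 4.

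Within length bins the OXPHOS genes often lay farther out than the average gene. In silica_DMSO 5 the median deviation of the 31 OXPHOS genes under 600 bases was 3.30, against 1.80 for all 720 tested genes of that length. For the 26 OXPHOS genes of 1000 to under 2000 bases it was 1.84, against 0.65 for 4251 genes. It was 0.20 for the 4 OXPHOS genes of 2000 to under 3000 bases and 1.58 for the 4 of 3000 bases and over. The fall with length thus did not hold in the longest bin. In silica_DMSO 5, 92.5% of the OXPHOS genes lay above the median of their length bin, in silica 7 90.3% and in DMSO 4 86.0%. In control 1 the short OXPHOS genes had a median of 1.47 while all genes under 600 bases had 0.10. The opposite held in control 2, silica_DMSO 2 and silica 1, where 9.68%, 9.68% and 5.38% of the OXPHOS genes lay above the median of their bin. In silica_DMSO 6, with thymocyte RNA, the OXPHOS genes had a median deviation of 0.73 under 600 bases and of 0.75 at 1000 to under 2000, against 0.31 and 0.00 for all genes, with a slope of -0.04. All 5 complexes were low together in silica 1, where the median deviation was -0.79 for complex I, -0.43 for II, -0.68 for III, -0.81 for IV and -0.75 for V.

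**Figure D2:**
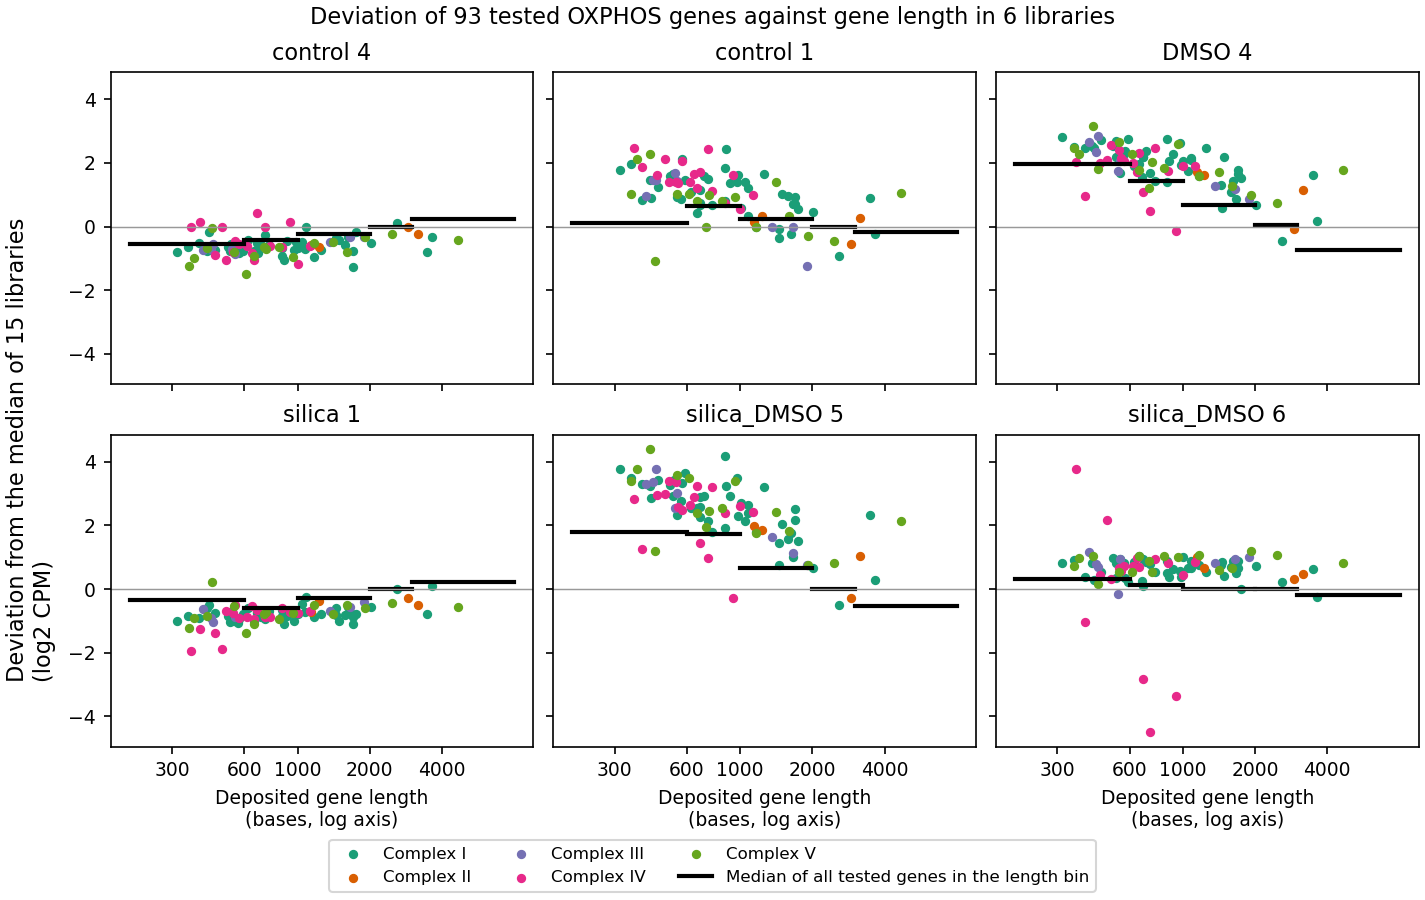
Deviation of each of the 93 tested OXPHOS genes from its median over 15 libraries (log2 CPM) against deposited gene length (bases, log axis) in 6 libraries, coloured by complex, with black bars for the median of all tested genes in each length bin. Points are lower at greater length up to 3000 bases in silica_DMSO 5, DMSO 4 and control 1. In silica_DMSO 6 most points lie flat above the bars.

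**Figure D3:**
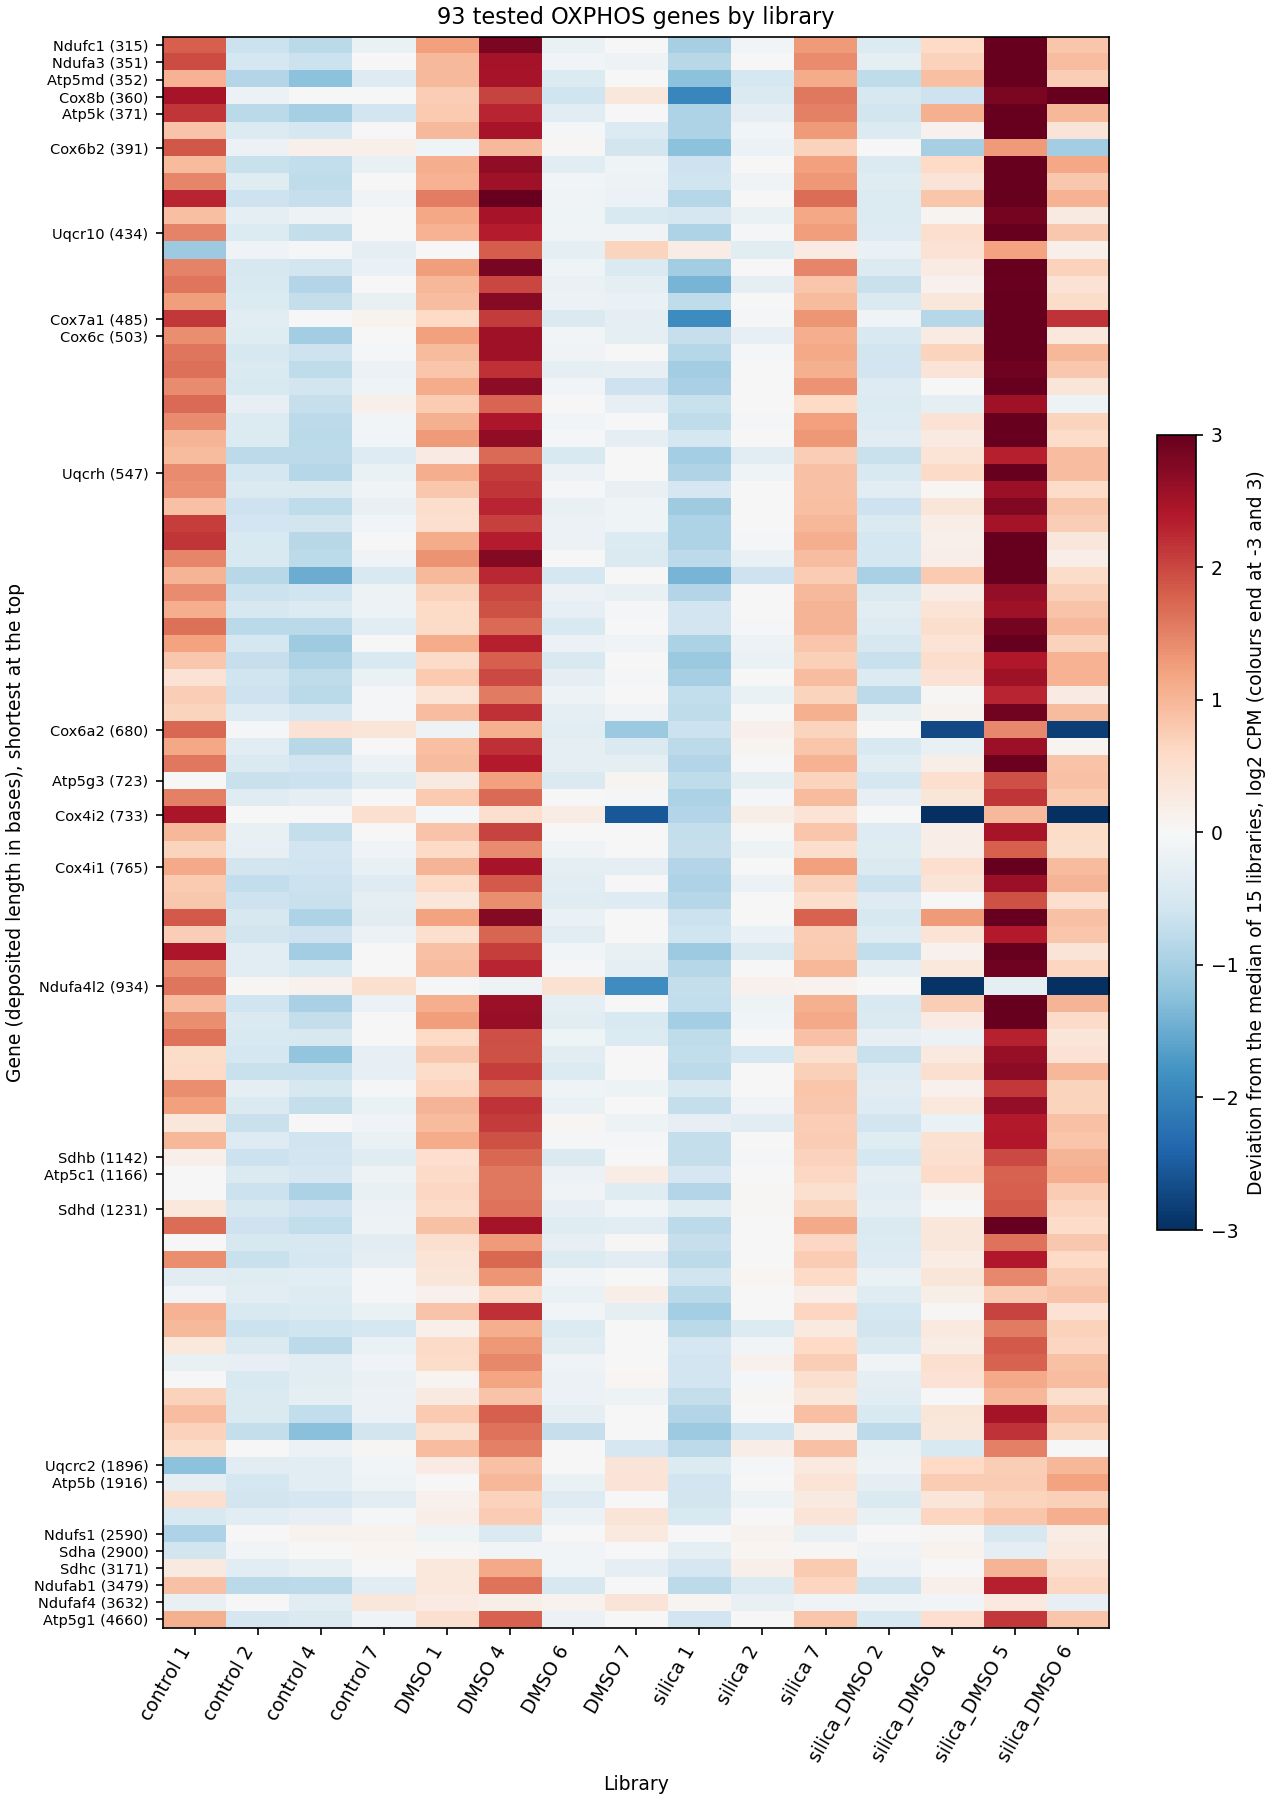
Deviation from the median of 15 libraries (log2 CPM, red higher and blue lower, colours end at -3 and 3) for the 93 tested OXPHOS genes, ordered by deposited length with the shortest at the top and with names beside some of the rows. Whole columns are red in DMSO 4 and silica_DMSO 5 except for Sdha, Ndufs1 and Ndufa4l2, which lay below 0. Cox4i2, Cox6a2 and Ndufa4l2 are blue in the 3 libraries with thymocyte RNA.

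In complex I, Ndufb4c, a copy of Ndufb4, had the highest mean TPM of the complex at 419 (range 281 to 634), and Ndufb4 itself 33.4. The gap was smaller in counts, with a mean CPM without the TMM factors of 63.7 for Ndufb4c and 31.6 for Ndufb4. The length implied by counts and TPM had a median over the 15 libraries of 121 bases for Ndufb4c and 815 for Ndufb4. A shorter implied length raises TPM for the same count. Reads of these near-identical genes could also have been split between them, so both levels are uncertain. The short accessory subunits Ndufc1 (315 bases) and Ndufa3 (351 bases) deviated by 3.76 and 3.48 log2 CPM in silica_DMSO 5. Ndufs1, an iron-sulfur subunit of the arm that takes in electrons (2590 bases), lay at -0.49 in that library and at -0.92 in control 1. Ndufab1, the mitochondrial acyl carrier protein (deposited length 3479 bases), had 113 TPM in silica_DMSO 5 against a median of 61.2. The length implied by its counts and TPM was 340 to 1057 bases in the 15 libraries, so its deposited length was not the length behind its TPM. The assembly factor Ndufaf4 (3632 bases) had 2.08 TPM in silica_DMSO 5 against a median of 6.29, but lay 0.30 log2 above its median on the TMM scale.

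Sdha, the flavoprotein that oxidises succinate (2900 bases), had 46.0, 78.1, 102 and 79.8 TPM in control 1, 2, 4 and 7, and 45.4, 20.4, 72.6 and 106 TPM in DMSO 1, 4, 6 and 7. It had 89.5, 75.3 and 47.9 TPM in silica 1, 2 and 7, and 81.9, 112, 18.2 and 109 TPM in silica_DMSO 2, 4, 5 and 6. The low TPM values thus came from silica_DMSO 5, DMSO 4, DMSO 1, control 1 and silica 7, in all 4 groups. On the TMM scale Sdha deviated by -0.27 in silica_DMSO 5, -0.09 in DMSO 4, 0.04 in DMSO 1, -0.54 in control 1 and 0.04 in silica 7, so only control 1 stood clearly low there. Sdhb, the iron-sulfur subunit (1142 bases) that binds Sdha in the finished complex, had 58.3, 66.2, 86.6 and 74.9 TPM in control 1, 2, 4 and 7, and 78.9, 90.5, 72.2 and 132 TPM in DMSO 1, 4, 6 and 7. In silica 1, 2 and 7 it had 78.1, 91.8 and 92.8 TPM, and in silica_DMSO 2, 4, 5 and 6 it had 76.6, 179, 79.4 and 229 TPM. Its mean of 99.1 TPM was the highest of the complex. Sdhb TPM was therefore highest in the 3 libraries with thymocyte RNA, whereas its normalised CPM was highest in silica_DMSO 5 (333) and DMSO 4 (281), ahead of silica_DMSO 6 (171). The TPM ratio of Sdha to Sdhb was 0.225 in DMSO 4 and 0.229 in silica_DMSO 5, and between 1.07 and 1.18 in control 2, 4 and 7, silica 1 and silica_DMSO 2. Of the membrane anchors, Sdhc (deposited length 3171 bases) ranged from 23.0 TPM in silica_DMSO 5 to 118 in silica_DMSO 6, and Sdhd (1231 bases) from 59.9 in control 1 to 162 in silica_DMSO 6. The implied length of Sdhc was 3134 bases in DMSO 4, 2299 in silica_DMSO 5 and at most 1905 in the other libraries. A longer implied length lowers TPM for the same count. On the TMM scale Sdhc and Sdhd in silica_DMSO 5 lay 1.03 and 1.85 above their medians.

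In complex III, Uqcrh, the hinge subunit that helps cytochrome c1 meet cytochrome c, had the highest mean TPM at 807. Its group means were 638 TPM ± 178 (SD, n = 4) in control, 804 ± 142 (SD, n = 4) in DMSO, 608 ± 94.1 (SD, n = 3) in silica and 1130 ± 421 (SD, n = 4) in silica_DMSO. Uqcrc2, a large core protein of 1896 bases, had 18.4 TPM in control 1 and 68.2 to 82.7 in the other controls. The small subunit Uqcr10 (434 bases) had 424 TPM in control 1 and 284 to 348 in the other controls, so the ratio of Uqcrc2 to Uqcr10 was 0.0434 in control 1. The ratio was 0.0441 in silica_DMSO 5 and 0.315 in silica 1, its highest value.

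In complex V, Atp5md, a small membrane subunit of 352 bases, had the highest mean TPM of all the genes at 878 (range 462 to 1647). Atp5k, subunit e of the membrane part (371 bases), had 179 TPM in control 2 and 678 in silica_DMSO 6. The ratio of Atp5a1, the alpha subunit of the catalytic head, to Atp5e, the epsilon subunit of its stalk, ranged from 0.0547 in silica_DMSO 5 to 0.624 in DMSO 7. The c ring, which turns as protons pass, has 3 genes that give the same mature protein. Atp5g3 had the highest mean of them at 379 TPM, Atp5g1 had 121 and Atp5g2 2.17. Atp5g1, the longest gene by deposited length (4660 bases), had an implied length of 488 to 590 bases.

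For some genes the length behind the TPM values differed between libraries. Dividing the deposited counts by the deposited TPM gives the length the authors' software used, here scaled in each library so that the median gene equalled its deposited length. This implied length is a divisor and not a measured transcript length. It fell far below the deposited length for many short genes, with medians of 96 bases for Atp5md (352 deposited) and 308 for Cox8a (550 deposited). For Sdha it was 3127 (2900 deposited). Over the 93 OXPHOS genes the median implied length was 0.684 of the deposited length at the middle gene, with a range of 0.118 to 1.26. Atp5b, the catalytic beta subunit, had an implied length of 489 bases in control 1 and 716 in silica_DMSO 5, against a median of 1516. Ndufs1 had 966 and 1046 (median 2521), and Sdha 1972 and 2306 (median 3127). The implied length of Uqcrc2 stayed between 1872 and 1963 bases and that of Atp5c1, the gamma subunit, between 987 and 1076. GENCODE release M21 lists 9 transcripts of Atp5b from 343 to 1916 bases, 13 of Ndufs1 from 332 to 2661 and 9 of Sdha from 198 to 2900. An implied length under 0.75 of the median was found for 10 of 93 OXPHOS genes in control 1 (12.1% of 9797 genes with at least 50 counts in every library), for 7 in silica_DMSO 5 (10.9%) and for 3 in DMSO 4 (5.75%). The OXPHOS genes were near the background in this respect. A shorter implied length raises TPM for the same count: Atp5b had 618 TPM in control 1, the highest of the 4 controls, where its normalised CPM was 465, inside the range of 392 to 515 in the other 3.

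**Figure D4:**
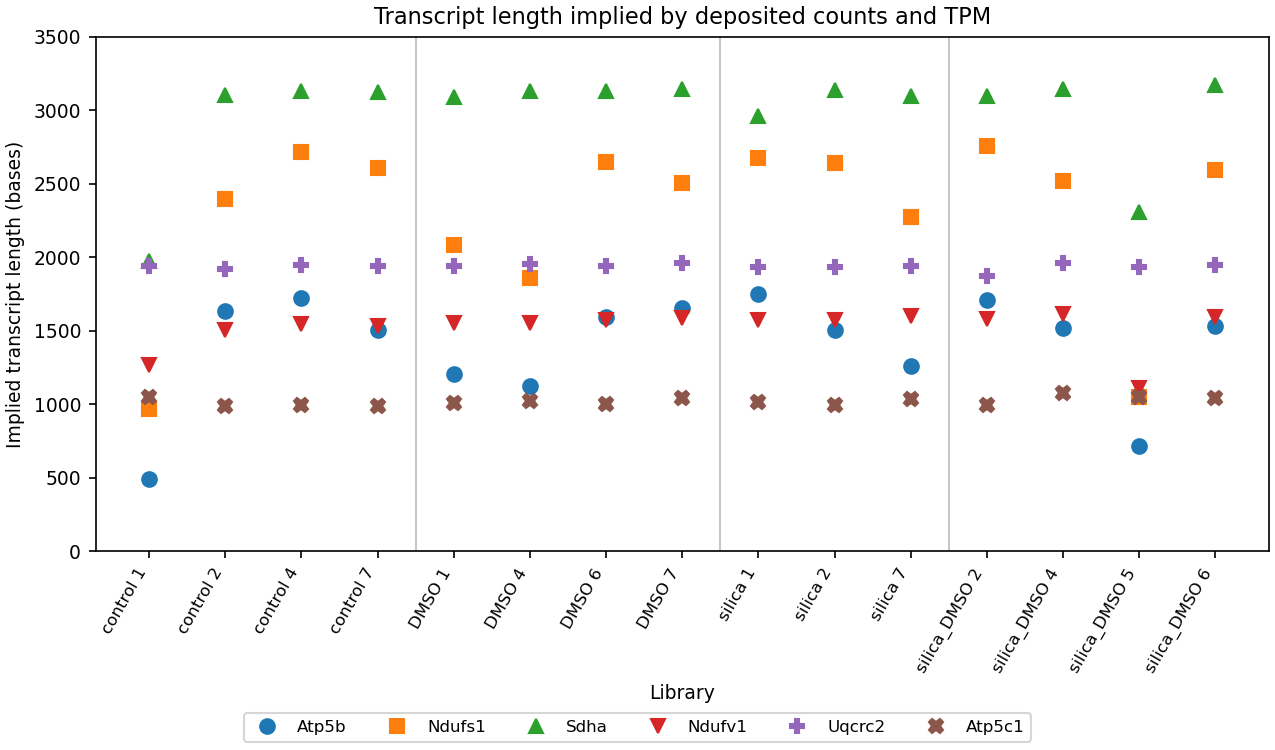
Length implied by the deposited counts and TPM (bases) for 6 OXPHOS genes in each of the 15 libraries, with grey lines between the groups. This length is a divisor and not a measured transcript length. Atp5b, Ndufs1, Sdha and Ndufv1 are shorter in control 1 and silica_DMSO 5, while Uqcrc2 and Atp5c1 stay level.

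Complex IV has isoforms that replace a common subunit in certain tissues, and 6 of them passed the filter. Cox4i2, an isoform of the subunit Cox4i1 found in lung and in vascular cells, had 202, 77.2, 96.5 and 99.4 TPM in control 1, 2, 4 and 7. It had 39.1, 28.4, 83.5 and 16.6 TPM in DMSO 1, 4, 6 and 7, and 52.4, 80.1 and 53.8 TPM in silica 1, 2 and 7. In silica_DMSO 2, 4, 5 and 6 it had 81.7, 2.18, 28.2 and 3.48 TPM, so the 4 controls, DMSO 6, silica 2 and silica_DMSO 2 lay at 77.2 or above and the other 8 libraries lay below the control range. On the TMM scale, Cox4i2 in silica_DMSO 5, DMSO 4 and silica 7 lay 0.97, 0.51 and 0.40 log2 above its median and inside the control range, so their low place in TPM did not hold there, while DMSO 7, silica_DMSO 4 and silica_DMSO 6 lay at -2.54, -5.22 and -4.51. The common isoform Cox4i1 ran from 467 TPM in silica 1 to 1486 in silica_DMSO 6. Cox4i2 was 21.6% of the sum of both in control 1 and 0.185% in silica_DMSO 4.

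Ndufa4l2, a hypoxia-inducible relative of Ndufa4 that is abundant in pericytes, had 52.8, 35.6, 47.1 and 48.8 TPM in control 1, 2, 4 and 7. DMSO 1, 4, 6 and 7 had 18.1, 7.92, 45.0 and 13.4 TPM, silica 1, 2 and 7 had 29.1, 36.8 and 22.0, and silica_DMSO 2, 4, 5 and 6 had 37.0, 5.15, 5.26 and 4.19. On the TMM scale it deviated by -1.87, -2.94 and -3.36 log2 in the 3 libraries with thymocyte RNA but by only -0.28 in silica_DMSO 5 and -0.14 in DMSO 4. The summed level of 8 pericyte markers was 18.3 to 48.9 TPM in the 3 libraries with thymocyte RNA and 69.2 to 140 in the other 12. Higd1b, the largest part of the sum in the other 12, was 2.68 to 20.1 TPM in the 3 and 45.5 to 90.2 in the 12. The 8 markers did not all go that way. Rgs5 was higher in the 3, at 9.36 to 18.2 TPM against at most 6.15, and Notch3 and Abcc9 lay inside their ranges of the 12. In silica_DMSO 5 the sum of the 8 markers was 94.8, of which Higd1b alone gave 90.2, while Pdgfrb was at 0.68 and Notch3 at 0.39. The part of pericyte number in these levels was not tested.

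Cox6a2, Cox7a1 and Cox8b are the isoforms of heart and skeletal muscle, and Cox7a1 and Cox8b are also abundant in brown fat. Cox8b was 239 TPM in silica_DMSO 6 and 3.38 to 29.9 in the other 14 libraries, and Cox7a1 was 94.4 there and 5.54 to 31.0 elsewhere. On the TMM scale Cox8b was also highest in silica_DMSO 6 (3.78 above its median), but Cox7a1 was higher in silica_DMSO 5 (2.99) than in silica_DMSO 6 (2.16). Cox6a2 was 2.52 TPM in the same library and reached 30.7 in control 4. Silica_DMSO 6 also held 26.4 TPM of Ucp1, the uncoupling protein of brown fat, and 50.1 of Cidea, and its sum of 5 brown fat markers was 96.8 against 2.29 to 58.5 in the other 14. The next highest brown fat sum was in DMSO 7, which had 5.52 TPM of Ucp1 and 23.7 of Cox8b. Of the same list, Adipoq and Plin1 were higher in DMSO 7, at 30.5 and 11.1 TPM, than in silica_DMSO 6, at 16.3 and 3.41. The sum of 8 skeletal muscle markers was also highest in silica_DMSO 6, at 75.5 TPM against 12.4 to 66.9 in the other 14. Mylpf gave 54.2 TPM of that sum and Tnni2 16.85, and only Mylpf of the 8 had its highest value there. Mylpf was also 42.3 TPM in silica_DMSO 4 and 30.8 in DMSO 7, against at most 7.32 in the 12 libraries without thymocyte RNA. Acta1 was 1.28 TPM in silica_DMSO 6 against 6.51 in silica_DMSO 2, and Ckm 1.27 against 6.71 in control 1. The sum of 12 cardiac markers was 244 to 668 TPM in the controls, 46.5 to 176 in DMSO, 79.8 to 206 in silica and 18.1 to 271 in silica_DMSO. Cox6b2, an isoform best known from testis, ranged from 12.1 TPM in silica_DMSO 5, where it lay 1.27 above its median on the TMM scale, to 45.1 in control 1. The parts of brown fat, skeletal muscle and heart muscle in these levels were not tested. The common partners were at higher TPM in every library: Cox6a1 at 185 to 529, Cox6b1 at 295 to 833, Cox7a2 at 147 to 443, Cox8a at 225 to 493 and Ndufa4 at 131 to 554. Cox7b ranged from 68.9 to 164 TPM and Cox7a2l from 230 to 593. Cox6c, a small common subunit with no such isoform among the tested genes, had the highest mean of the complex at 821 TPM.

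**Figure D5:**
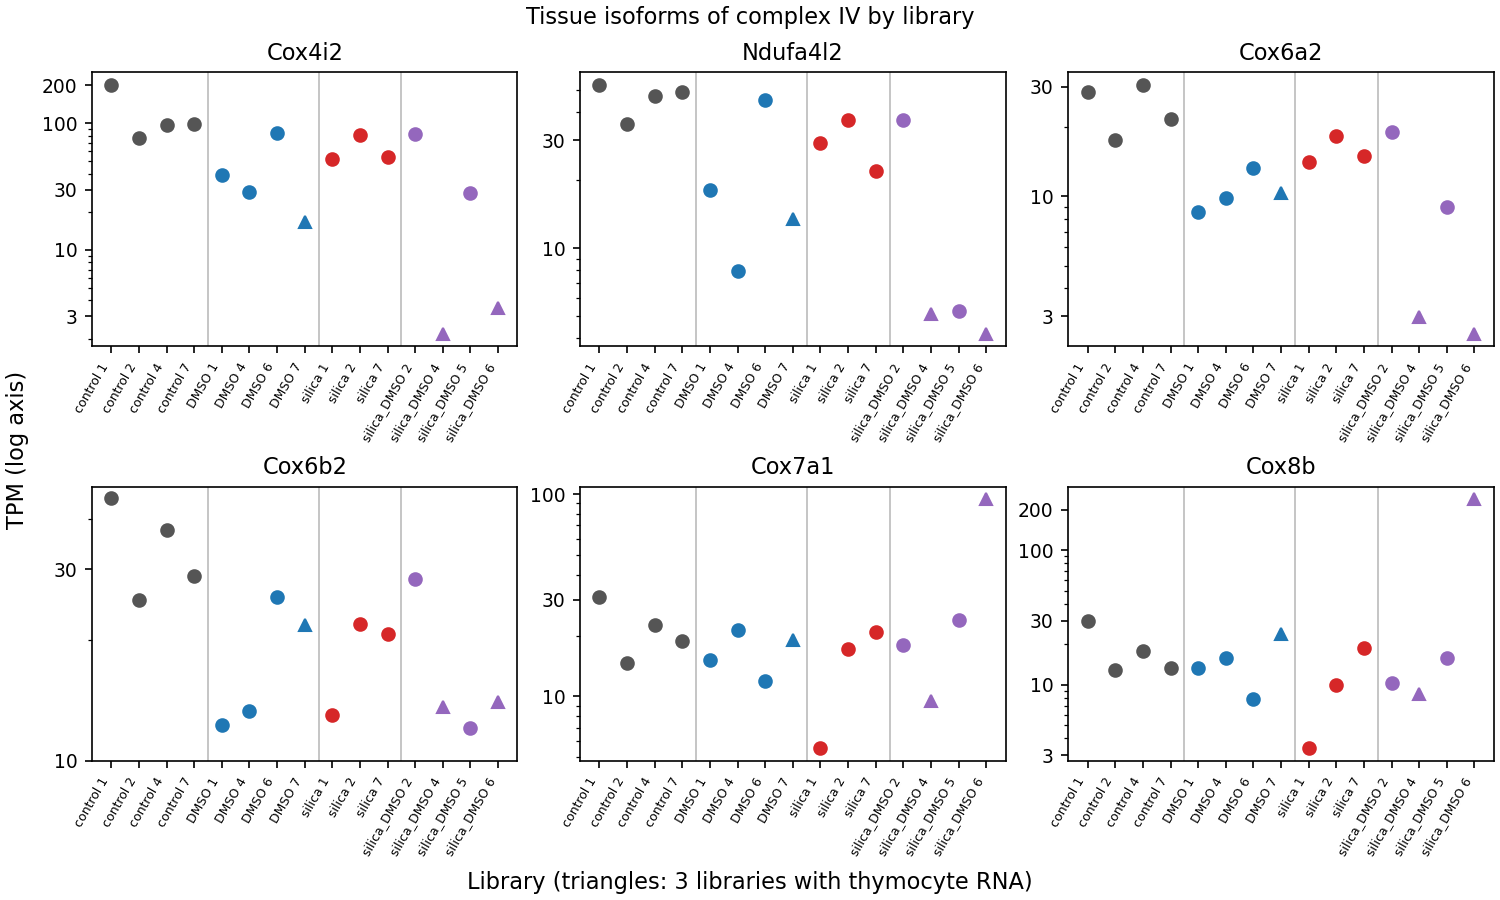
TPM (log axis) of 6 tissue isoforms of complex IV in each of the 15 libraries, coloured by group, with triangles for the 3 libraries with thymocyte RNA. Cox4i2 and Ndufa4l2 are low in TPM in several DMSO and silica_DMSO libraries, and Cox7a1 and Cox8b have their highest TPM in silica_DMSO 6, at 94.4 and 239, while on TMM-scaled counts Cox7a1 is highest in silica_DMSO 5.

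The subunits encoded in mitochondrial DNA did not follow the nuclear ones. Their 13 genes took 0.676% of the counts in silica_DMSO 6 and 4.53% in control 2. The ratio of mitochondrially encoded to nuclear OXPHOS counts was 7.27 in control 2, 3.58 to 4.89 in control 4, control 7, DMSO 6, DMSO 7, silica 1, silica 2 and silica_DMSO 2, and 1.69 to 2.46 in control 1, DMSO 1 and silica 7. It was 0.865 in DMSO 4, 0.841 in silica_DMSO 4, 0.576 in silica_DMSO 5 and 0.450 in silica_DMSO 6. The 4 ratios below 1 were all in DMSO or silica_DMSO libraries, while the lowest control was 1.82 and the lowest silica library 1.69. Of these 4 libraries, silica_DMSO 4 and silica_DMSO 6 hold thymocyte RNA. DMSO 4 and silica_DMSO 5 had steep slopes on gene length, at -0.52 and -0.78. Without the 3 libraries with thymocyte RNA, DMSO libraries spanned 0.865 to 4.89, and the silica_DMSO ratios were 0.576 in silica_DMSO 5 and 3.58 in silica_DMSO 2. This ratio was not tested between groups.

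The groups were compared with edgeR's quasi-likelihood test over all 17879 tested genes, with Benjamini-Hochberg adjusted p under 0.05 as the threshold. No OXPHOS gene passed in any of the 6 comparisons, and no gene of the table passed either, so the percentage of all tested genes called was 0 in each. The common biological coefficient of variation was 0.666.

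Silica against control asks how lungs dosed with silica differed from saline lungs. Of the 93 genes, 52 had a fold change above 0 and 41 below, with a median log2 fold change of 0.04, against 0.00 for all tested genes. No member had an unadjusted p under 0.05, and DESeq2 (0.246% of all genes called, 0.229% higher and 0.0168% lower) and limma-voom with quality weights (8.22%) also called 0. The median was 0.27 by limma-voom. The genes of smallest p were Cox6b2 at -0.82 ± 0.72 (log2 fold change ± SE), Uqcrc2 at 0.41 ± 0.36 and Ndufa4l2 at -0.83 ± 0.77, all with an adjusted p of 1 by edgeR's quasi-likelihood test. The median was 0.56 without control 1 and -0.53 without silica 7, the libraries with the steepest slopes on length of their groups, and leaving out control 2, 4 or 7 also made it negative, at -0.04 to -0.15. It was 0.32 without silica 1 and 0.14 without silica 2.

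Silica_DMSO against silica asks how silica lungs given DMSO differed from those without it. Fold changes were above 0 for 90 of 93 genes, with a median of 1.07 against 0.05 for all genes. None reached an unadjusted p under 0.05, and the smallest adjusted p by edgeR was 0.708, shared by Atp5mpl (2.04 ± 1.04), Ndufs4 (1.38 ± 0.72) and Cox7b (1.39 ± 0.77), while DESeq2 called 0 (0.375% of all genes, 0.352% higher and 0.0224% lower). Limma-voom called 26 higher and 4 lower, among 33.3% and 35.4% of all genes (68.7% in all), with a median of 0.48, and limma-trend on log2(TPM + 1) gave a median of 0.55. The median rested on silica_DMSO 5, since it was 0.09 without that library. It was 1.53 without the 3 libraries with thymocyte RNA, 1.64 without silica 7, and -0.57 without silica_DMSO 5 and the 3 libraries, which leaves silica_DMSO 2 alone in its group. With an offset for gene length in each library it was 0.49, against 0.09 for all genes.

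DMSO against control had 88 of 93 fold changes above 0, with a median of 0.77 against 0.14 for all genes. Uqcrc2 alone had an unadjusted p under 0.05, at 0.84 ± 0.34 with an edgeR adjusted p of 0.649, ahead of Atp5g2 (1.202 ± 0.57) and Atp5c1 (0.97 ± 0.47) with the same adjusted p. It was also the 1 gene of 93 whose normalised CPM in all 4 DMSO libraries exceeded all 4 controls, and 2.07% of all tested genes did so. The DMSO values were 153, 237, 129 and 169 in DMSO 1, 4, 6 and 7, against 54.9, 104, 102 and 123 in control 1, 2, 4 and 7. No OXPHOS gene lay wholly below the controls, against 2.09% of all genes. DESeq2 called 0 (0.352% of all genes, 0.347% higher and 0.00559% lower). Limma-voom called 80, all higher, against 20.7% of all genes higher and 18.2% lower (38.9% in all). The median was 0.12 without DMSO 4 and 1.32 without control 1, it was 0.93 without the libraries with thymocyte RNA, it was 0.23 with the length offset, against 0.14 for all genes, and it was 0.15 with limma-trend on log2(TPM + 1).

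Silica_DMSO against DMSO had 85 of 93 fold changes above 0, with a median of 0.38 against -0.00 for all genes. No member had an unadjusted p under 0.05, DESeq2 called 0 (0.00559% of all genes), and limma-voom called 4 higher and 14 lower, among 31.9% and 37.6% of all genes (69.4% in all), with a median of -0.31. The smallest edgeR p belonged to Cox8b at 1.58 ± 1.12, Atp5k at 1.13 ± 0.99 and Ndufa4l2 at -0.79 ± 0.71, each with an adjusted p of 0.998. The median changed sign to -0.68 without silica_DMSO 5. It was 1.08 without DMSO 4, 0.17 without DMSO 6, 0.19 without DMSO 7, 0.69 without silica_DMSO 2, 0.64 without silica_DMSO 4 and 0.65 without the 3 libraries with thymocyte RNA.

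Silica_DMSO against control had 89 of 93 fold changes above 0, with a median of 1.13 against 0.08 for all genes. Here 17 members had an unadjusted p under 0.05, and 3075 of all 17879 genes did. Uqcrc2 led with 1.03 ± 0.34 and an edgeR adjusted p of 0.218, followed by Atp5g3 at 1.35 ± 0.52 (adjusted p 0.232) and Atp5c1 at 1.23 ± 0.47 (adjusted p 0.234). DESeq2 called 1 gene, Uqcrc2, with an adjusted p of 0.0419, among 5.51% of all genes (4.97% higher and 0.543% lower). Limma-voom called 51 higher and 4 lower, among 33.3% and 35.1% of all genes (68.4% in all), and limma-trend on log2(TPM + 1) gave a median of 0.55. Uqcrc2 was 0.76 ± 0.40 without the libraries with thymocyte RNA, with an edgeR adjusted p of 0.694. Ndufa4l2 had -1.69 ± 0.72 (edgeR adjusted p 0.260) and was the 1 gene whose normalised CPM in all 4 silica_DMSO libraries lay below all controls (3.01% of all genes): 20.5, 2.60, 16.9 and 1.91 in silica_DMSO 2, 4, 5 and 6 against 62.9, 21.2, 22.6 and 28.6 in control 1, 2, 4 and 7. None lay wholly above, against 3.32% of all genes. The median of the 93 genes was 0.14 without silica_DMSO 5, 1.53 without the libraries with thymocyte RNA and -0.59 without all 4. It was 2.08 without the libraries with thymocyte RNA and control 1. Without silica_DMSO 2, edgeR called 1956 of 17812 genes (5.22% higher and 5.77% lower) and 2 of the 93 OXPHOS genes, Uqcrc2 (1.22 ± 0.33, adjusted p 0.0394) and Atp5g3 (1.63 ± 0.48, adjusted p 0.0479), both higher.

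The interaction asks whether DMSO shifted silica lungs differently from unexposed ones. Fold changes were above 0 for 76 of 93 genes, with a median of 0.32 against -0.00 for all genes, and no member had an unadjusted p under 0.05. DESeq2 called 0 (0.0447% of all genes) and limma-voom 12, all lower, against 27.4% of all genes higher and 33.1% lower (60.5% in all), with a median of -0.56. The smallest edgeR p belonged to Cox8b at 2.27 ± 1.65, Ndufa5 at 1.63 ± 1.39 and Cox7a1 at 1.48 ± 1.43, each with an adjusted p of 1.00. The median was -0.60 without silica_DMSO 5, -0.17 without control 1, 1.05 without DMSO 4, 0.89 without silica 7 and 0.02 without silica 1, and lay between 0.10 and 0.61 without the libraries DMSO 6, DMSO 7, control 4, silica_DMSO 2 or silica_DMSO 4 in turn. It was 0.62 without the 3 libraries with thymocyte RNA.

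By complex, medians of the silica_DMSO against control fold changes were 1.13 for complex I, 0.73 for II, 1.22 for III, 1.06 for IV and 1.35 for V. With the length offset they were 0.44, 0.65, 0.62, 0.30 and 0.75. The 6 tissue isoforms had a median of -0.73, with 2 above 0, while all 77 tested subunits of the common kind lay above 0. No member of any complex passed the threshold in either direction.

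In the same comparison, where all tested genes had a median of 0.08, no gene passed by edgeR on 7 lists of other mitochondrial and glycolysis genes. The 49 genes of the large mitochondrial ribosome had a median of 0.96 with 49 above 0, and 39 assembly factors outside the rule had 0.61 with 38 above 0. The 18 genes of the tricarboxylic acid cycle had 0.48 with 15 above 0, and 15 glycolysis genes had 0.70 with 11 above 0. The 19 other respiratory chain and carrier genes had 0.51 with 17 above 0. The 13 mitochondrially encoded genes had -1.17 with 3 above 0. The 20 tested regulators of mitochondrial biogenesis, among them Ppargc1a and Nrf1, had 0.44 with 15 above 0. Median gene length ran from 784 bases in the mitochondrially encoded list to 3905 in the regulators. These list medians came from the fit to all 15 libraries. In that comparison the median of the OXPHOS genes was 0.14 without silica_DMSO 5. List medians without silica_DMSO 5, or without the libraries with thymocyte RNA, are not given here. The values above therefore do not show a shift shared by all silica_DMSO libraries.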

How the data were processed

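RNA sequencing of lung libraries was deposited by the authors in 2 gene tables, one of expected counts and one of TPM, each with a gene length column, per the file headers; 7.52% to 10.0% of the deposited counts were not whole. Bowtie 0.12.2 and the build mm8 are named, without a role, in the submitters' processing notes. Which program counted the reads is not stated there. Groups came from the labels' treatment field and titles.

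Counts were rounded and tested with edgeR 4.0.16 (R 4.3.3), one fit of 4 group means over 15 libraries, filterByExpr, TMM scaling, the quasi-likelihood test and Benjamini-Hochberg adjustment over 17879 genes. Rounding changed no library total by more than 53.9 counts. DESeq2 1.42.0, limma 3.58.1 (voom with quality weights, and limma-trend on log2-transformed TPM after adding 1 or 0.1), other filters and scalings, a gene length offset (lowess span 0.3) and left-out libraries were alternatives. The scripts were tested on simulated counts. Figures used matplotlib 3.10.9.

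Named genes were the highest mean TPM of each complex, the Sdh genes, the 5 longest and 5 shortest tested genes, listed isoforms, genes called, and the 3 smallest p per comparison. The genes, lists and comparisons were chosen with earlier results of these data known. The classes, subunit ratios, implied lengths, printed promoters and further genes named for these were chosen after the values had been seen. GENCODE M21 names were found for all 101 identifiers.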

Additional observations from a re-analysis of the deposited data

Results flagged for a closer look

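Of 96 sets of 4 libraries checked over 32 results, 11 held a library whose gap to its nearest neighbour was large against the range of its group; chance marks about 1 in 20 such sets. The 32 results were chosen after the values had been seen, and silica, with 3 libraries, was not checked.

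The slope of the OXPHOS genes' deviation on gene length was -0.53 in control 1, against -0.00 to 0.09 in the other controls, and -0.78 in silica_DMSO 5, against -0.04 to 0.05 in the other silica_DMSO libraries. In silica_DMSO 5 the TPM ratio of Uqcrc2 to Uqcr10 was 0.0441, against 0.248 to 0.277 in the rest of its group, and that of Atp5a1 to Atp5e was 0.0547, against 0.412 to 0.476. Atp5e was 1061 TPM in control 1 and 361 to 475 in the other controls. Sdhd was 112 TPM and Atp5b 731 TPM in DMSO 7, which has thymocyte RNA, against at most 77.01 and 364 in the other DMSO libraries; on TMM-scaled counts DMSO 7 lay inside the range of its group for both. Cox7a1 was 94.4 TPM and Cox8b 239 TPM in silica_DMSO 6, against at most 23.8 and 15.9 in the rest of its group; on TMM-scaled counts Cox7a1 was higher in silica_DMSO 5. Ndufa4l2 was 37.0 TPM and Cox6b2 28.4 TPM in silica_DMSO 2, against at most 5.26 and 14.04 in the rest of its group; silica_DMSO 2 was the one library of its group inside the control range for Ndufa4l2 TPM.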

How the results depend on the processing

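The count of OXPHOS genes called stayed at 0 in all 6 comparisons with DESeq2 size factors, limma-trend on TPM, other filters, the length offset and without the 3 libraries with thymocyte RNA. It was also 0 in the 5 comparisons of a fit restricted to the compared groups, which was not made for the interaction. DESeq2 called 1 gene in silica_DMSO against control. Limma-voom with quality weights called 30 (26 higher, 4 lower) in silica_DMSO against silica, 80 higher in DMSO against control, 18 (4 higher, 14 lower) in silica_DMSO against DMSO, 55 (51 higher, 4 lower) in silica_DMSO against control and 12 lower in the interaction; its cause was not tested.

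Leaving out each library in turn gave 0 to 2 called genes in silica_DMSO against control (2 higher without silica_DMSO 2, where 5.22% of all genes were called higher) and 0 to 0 in the other comparisons. The medians ranged over -0.53 to 0.56 for silica against control, 0.09 to 1.64 for silica_DMSO against silica, 0.12 to 1.32 for DMSO against control, -0.68 to 1.08 for silica_DMSO against DMSO, 0.14 to 1.69 for silica_DMSO against control and -0.60 to 1.05 for the interaction. Chosen after seeing the data, the fit without the 3 libraries with thymocyte RNA and silica_DMSO 5 gave medians of -0.57 for silica_DMSO against silica, -1.55 against DMSO, -0.59 against control and -1.52 for the interaction. Without the 3 libraries and DMSO 4 they were 1.41 for silica_DMSO against DMSO and 1.44 for the interaction. The silica_DMSO group then holds 1 or 2 libraries, and a lone library is assumed to vary like the other groups.

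The labels do not say whether libraries with the same number are paired. Of 13 pairs with the same number, 4 had a correlation of their deviations from group means over 0.1, with a range of -0.49 to 0.27. The deviations also hold differences of single libraries, such as thymocyte RNA, so these correlations cannot decide it. With the replicate block the median of silica_DMSO against silica was -0.047, that of silica_DMSO against DMSO -0.31 and that of the interaction -0.57, each below 0, while 0 genes were called in each comparison. The slopes on length moved by less than the spread within groups under all 3 alternatives in each of the 15 libraries. That spread, an SD of 0.31, exceeded the slope itself in most libraries, so this says little about the small slopes. With deviations taken from the mean, the slope of silica_DMSO 6 changed sign from -0.04 to 0.09. The share of the OXPHOS genes moved by more than its own spread within groups when taken from TPM, at 1.29% to 3.45%, in all 15 libraries, and silica_DMSO 6 then ranked first in place of silica_DMSO 5. The precision is limited by 3 or 4 libraries per group and their spread.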
